A study of Mus musculus with 18 samples.

Results

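Phgdh, Psat1 and Psph encode the enzymes that build serine from a glycolytic intermediate, and Shmt2, Mthfd2 and Aldh1l2 encode enzymes that process the serine-derived carbon unit inside mitochondria. These 6 genes, of 25957 in the deposited count table, were described here in C2C12, an established line of mouse myoblasts, after different ways of detaching the cells from the plate. They were chosen by their role as metabolic targets of the transcription factor Atf4, with measured values of these libraries in view. Which values these were is not stated, so every contrast is treated as seen and their differences are given as a description with no p-value. All 6 were among the 10075 genes with enough counts to be tested, and no member was left out.

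RNA was measured by BRB-seq, a bulk method that barcodes each sample's cDNA early and reads mainly the 3′ ends of mRNAs. All 18 libraries came from cells grown in DMEM with 20% fetal bovine serum, with no genetic change named in the labels, and fell into 6 groups of 3. Control cells were lysed on the plate and scraped. The other cells were washed with PBS and given 200 µL of enzyme: 0.25% trypsin for 30 s, for 3 min or for 30 min at 37 °C; trypsin that was withdrawn at once before 3 min at 37 °C (low trypsin); or a cold-active protease for 5 min at 4 °C with shaking. Enzyme, washing, incubation time and harvest differ together between control and treated cells and cannot be told apart. The libraries of a group are labelled as lots 1 to 3. Nothing says that lots were separate cultures, so a p-value here reflects only the scatter among these libraries, which may be technical. Myoblast markers summed to 1510 to 1820 CPM (counts scaled to a common library total), with 7 of 10 tested, and markers of differentiating muscle to 437 to 573 CPM. Immune markers summed to at most 7.31 CPM, endothelial to at most 1.56 and epithelial to at most 4.23. The single tested neural and adipocyte markers, Tubb3 and Pparg, brought those sums to 29.0 to 45.1 and 12.9 to 27.1 CPM.

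Cells make serine from the glycolytic intermediate 3-phosphoglycerate: Phgdh oxidises it, Psat1 adds the amino group and Psph removes the phosphate. Shmt2 splits serine into glycine and a carbon unit carried on folate, Mthfd2 oxidises that unit, and Aldh1l2 can release it as carbon dioxide while making NADPH. Products of this route feed nucleotide synthesis, and Atf4, the main effector of the integrated stress response, is a known activator of these genes.

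The 3 members that were called lower in at least 1 treatment, Phgdh, Mthfd2 and Psat1, are shown with the sequence around their transcription start. Each window is the RefSeq sequence (GRCm38.p6) of 300 bases, from 250 before to 50 after the start, written 5′ to 3′ on the gene's strand. Capitals mark CCAAT on either strand (CCAAT or ATTGG), a box common in promoters, which was searched for after the windows had been read. The windows lie on the minus strand at chr3:98339920-98340219 for Phgdh, chr6:83317555-83317854 for Mthfd2 and chr19:15925010-15925309 for Psat1.
Phgdh: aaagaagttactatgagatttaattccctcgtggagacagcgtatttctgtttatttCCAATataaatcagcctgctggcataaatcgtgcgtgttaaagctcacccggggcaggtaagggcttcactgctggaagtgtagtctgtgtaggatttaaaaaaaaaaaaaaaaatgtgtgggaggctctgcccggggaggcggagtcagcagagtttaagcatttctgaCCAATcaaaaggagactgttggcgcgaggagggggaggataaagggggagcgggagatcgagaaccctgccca
Mthfd2: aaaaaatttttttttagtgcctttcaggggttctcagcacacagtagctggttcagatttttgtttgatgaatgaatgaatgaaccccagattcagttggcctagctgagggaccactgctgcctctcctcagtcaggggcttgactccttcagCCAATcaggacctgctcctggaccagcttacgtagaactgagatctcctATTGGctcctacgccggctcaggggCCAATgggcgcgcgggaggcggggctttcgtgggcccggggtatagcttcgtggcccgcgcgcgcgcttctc
Psat1: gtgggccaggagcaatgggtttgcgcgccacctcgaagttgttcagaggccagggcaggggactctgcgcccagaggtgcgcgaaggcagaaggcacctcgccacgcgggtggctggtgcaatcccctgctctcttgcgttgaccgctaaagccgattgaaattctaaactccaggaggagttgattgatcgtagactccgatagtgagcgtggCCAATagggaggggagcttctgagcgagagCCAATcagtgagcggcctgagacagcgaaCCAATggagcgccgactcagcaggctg

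The Phgdh window holds 2 CCAAT boxes, starting at -193 and -23 from the transcription start, the Mthfd2 window 3 and the Psat1 window 3. Psph, at chr5:129787204-129787503, has 2 in its window and Shmt2, at chr10:127522395-127522694, has 0, while 41.1% of 27025 genes with a window have at least 1. A second window of Psat1, at chr19:15924573-15924872, has 0. Aldh1l2 had no window in the set used and was not searched. TGATGNAA, a core of the response element read by Atf4 with C/EBP partners, was searched for on both strands and occurs in none of the windows of these 5 members, against 4.51% of genes. CACGTG, the E-box read by Myc, also occurs in none of them, against 8.09% of genes. No motif overlaps another. A match is a string of letters, and a missing match says only that these letters are not in this window.

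Phgdh was the member that differed most from control: its mean was 23.6 CPM in scraped cells and between 8.46 and 16.5 CPM in the treated groups. Mthfd2 was lower by smaller amounts, Psat1 lower mainly in low trypsin, and Psph, Shmt2 and Aldh1l2 overlapped control in every treatment. Levels here are CPM after TMM scaling, which adjusts library totals for composition, and differences are fitted log2 values with their standard error (SE). A gene is called when its adjusted p in edgeR's quasi-likelihood test, over all tested genes, is under 0.05. After 30 s, 2 of the 6 members, Phgdh and Mthfd2, were called lower and 0 higher, where 3.7% of all tested genes were called lower and 3.24% higher. After 3 min 0 members were called by edgeR and 1 was under 0.05 unadjusted, where 2.95% of genes were called lower and 1.01% higher. DESeq2 also called 0 but gave no adjusted p for Aldh1l2. After 30 min 1 member, Phgdh, was called lower and 0 higher, where 2.61% of genes were called lower and 2.07% higher. In low trypsin 2 members, Phgdh and Psat1, were called lower and 0 higher, where 1.9% of genes were called lower and 3.3% higher. With the cold-active protease 0 members were called by edgeR and 2 were under 0.05 unadjusted, where 0.467% of genes were called lower and 0.199% higher. Here DESeq2 also called 0 but gave no adjusted p for Phgdh and Aldh1l2. The members may have been chosen on any of these contrasts, so nothing is read from the members' counts, and the 5 contrasts share their 3 control libraries. The share of all tested genes whose libraries do not overlap is not given here. Overlap and its absence therefore only describe these libraries, and nothing is read from them.

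**Figure D1:**
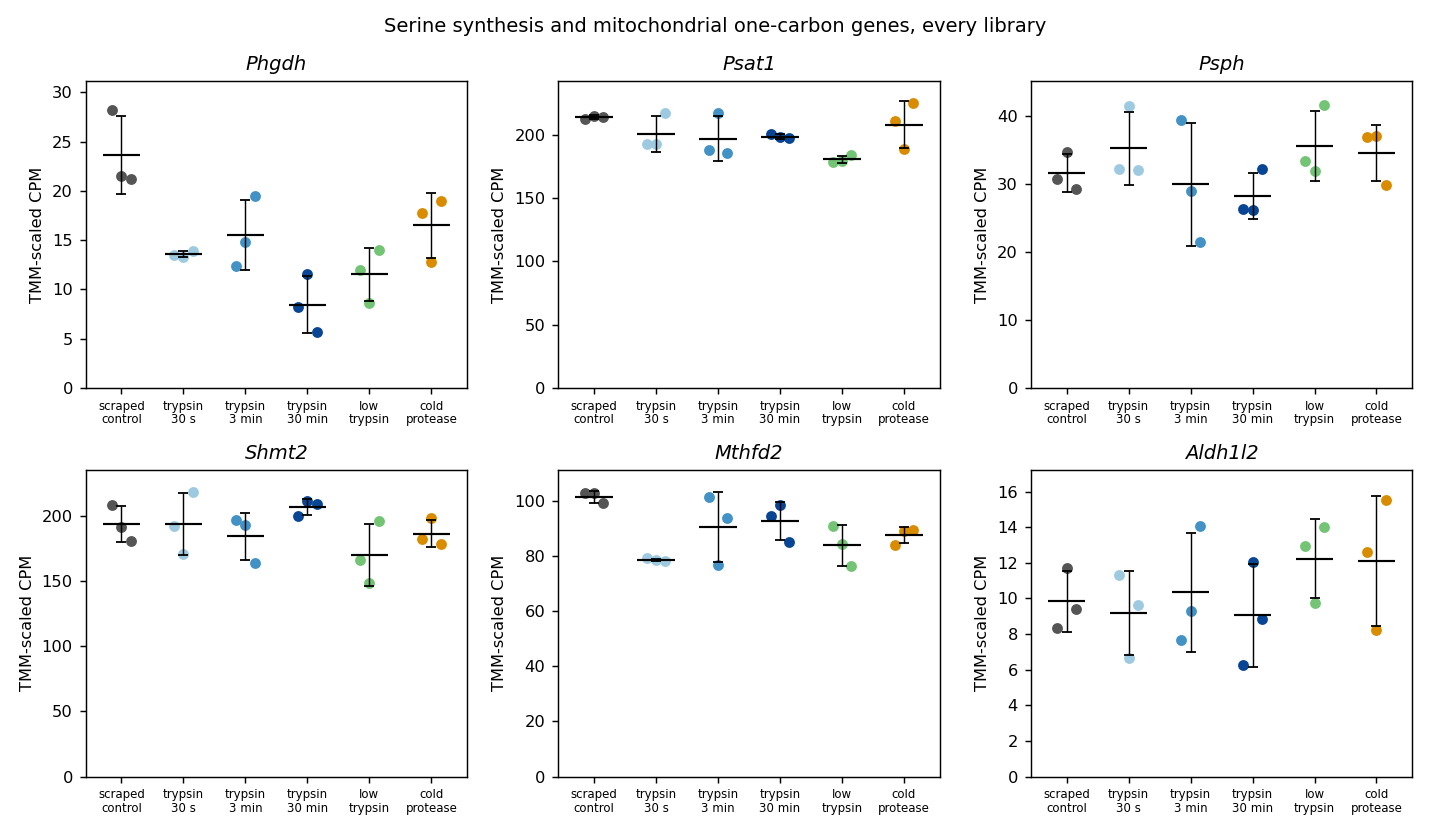
Level of each member in each of the 18 libraries, in TMM-scaled CPM on axes that start at 0; points are libraries, the long bar is the group mean and the whiskers are 1 SD (n = 3). All 15 treated libraries lie below the 3 control libraries for Phgdh, while Psph, Shmt2 and Aldh1l2 overlap control in every group.

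Phgdh (ENSMUSG00000053398), the enzyme that commits 3-phosphoglycerate to serine, has 12 exons on the minus strand at chr3:98313170-98339990 (GRCm38). Its levels were 28.2, 21.5 and 21.2 CPM in the 3 control libraries, from 44, 44 and 45 counts. After 30 min in trypsin they were 8.17, 11.5 and 5.67 CPM, from 13, 22 and 9 counts. The gap between these groups, from 11.5 to 21.2 CPM, was wider than the spread inside either of them. The fitted difference was -1.43 ± 0.266 (SE; 95% interval -1.96 to -0.90), a ratio of 0.371.

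After 30 s Phgdh stood at 13.5, 13.3 and 13.9 CPM, a difference of -0.78 ± 0.234 (SE). After 3 min it stood at 12.4, 14.8 and 19.4 CPM, a difference of -0.60 ± 0.238 that was not called. Low trypsin gave 12, 8.66 and 14 CPM, a difference of -1.0 ± 0.241 and a ratio of 0.5. The cold-active protease gave 17.7, 12.8 and 18.9 CPM, the smallest difference of the 5 at -0.52 ± 0.225, not called. Every treated library was below the lowest control library. In order of the mean the groups ran control, cold-active protease, 3 min, 30 s, low trypsin and 30 min, and each neighbouring pair of treated groups overlapped.

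The call of Phgdh at 30 min was kept under 15 of 15 alternative settings, with differences from -1.74 to -1.22. Its call at 30 s was kept under 10 of 15 and ended with DESeq2, without control replicate 1 (-0.65) and without each of the 30 s libraries (-0.77, -0.78 and -0.80). In low trypsin the call was kept under 14 of 15 and ended without low trypsin replicate 2 (-0.84). Phgdh counts ran from 9 to 45 per library and 509 in all. The spread of Phgdh within groups was 22.3% of the mean, where counting error alone gives 20.5%.

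Phgdh also has many copies in the genome that match it in part. How the authors' counting treated reads with several matches is not given in the sources used here. Its transcripts share runs of 45 bases, the length of the cDNA read, on the same strand with 21 other annotated genes, 20 of them pseudogenes. Of the runs in the last 500 bases of its principal transcript, 36.8% were shared, while the other 5 members shared 0% there on the same strand. The 11 copies found in the count table held 0 to 5 counts per library together, and adding them to Phgdh gave -1.39 at 30 min. Gm7901, the copy sharing most with Phgdh, is not in the count table, so this sum leaves it out. It shared 39.9% of the runs of Phgdh, and each other copy 22.5% or less. The level of Phgdh is therefore uncertain. Of 9713 tested coding genes, 266 (2.74%) share at least as much of their last 500 bases.

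Of those 266 genes, 21.8% were called lower after 30 min, as were 1.78% of the 8706 coding genes that share no run. The same shares were 30.5% against 2.38% after 30 s, 25.6% against 1.78% after 3 min, 19.5% against 1.23% in low trypsin, and 7.14% against 0.161% with the cold-active protease. The 266 genes were also called higher in 9.77% of cases after 30 s, 4.14% after 30 min and 9.02% in low trypsin, where the genes with no shared run gave 2.53%, 1.68% and 2.46%. After 3 min and with the cold-active protease 0.376% of the 266 were called higher, where the others gave 0.942% and 0.138%. Of the 206 that do not encode ribosomal proteins, 16.5% were called lower after 30 min and 19.9% after 30 s. The median difference of the 266 after 30 min was -0.08, while that of Phgdh was -1.43. The part of these shared sequences in the Phgdh result was not tested.

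Psat1 (ENSMUSG00000024640), the aminotransferase of the route, lies at chr19:15904678-15947337 with 9 exons and was counted more deeply, at 277 to 458 counts per library. It stood at 212.4, 215.4 and 214.5 CPM in control cells and at 179, 180 and 184 CPM in low trypsin. These groups did not overlap, although the difference was small at -0.24 ± 0.0758 (SE; 95% interval -0.40 to -0.09), a ratio of 0.845. The call was kept under only 4 of 15 alternatives and ended with each of the 6 libraries left out, while the difference stayed between -0.26 and -0.23.

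After 30 min Psat1 was at 201, 198 and 197 CPM, below all 3 control libraries, with a difference of -0.11 ± 0.0765 that was not called. The 30 s libraries were at 193, 193 and 217 CPM and the 3 min libraries at 189, 218 and 186 CPM. One library of each of these groups was above the highest control library. The cold-active protease gave 211, 189 and 225 CPM. Means ran from 181 CPM in low trypsin to 214 CPM in control, a ratio of 1.18, and of neighbouring groups only 3 min and low trypsin did not overlap.

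Psph (ENSMUSG00000029446), the phosphatase of the last step, lies at chr5:129765558-129787449 with 8 exons. Its control libraries stood at 30.8, 34.7 and 29.2 CPM. Treated group means ran from 28.3 CPM after 30 min (26.4, 26.2 and 32.2) to 35.6 CPM in low trypsin (33.4, 32 and 41.6). All groups overlapped with their neighbours. The widest range inside a group was after 3 min, at 39.5, 29.0 and 21.4 CPM. Differences from control lay between -0.17 ± 0.187 (SE) after 30 min and 0.18 ± 0.173 in low trypsin, with 95% intervals of -0.54 to 0.21 and -0.17 to 0.53. Changes inside those intervals are therefore not excluded at 32 to 90 counts per library.

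Shmt2 (ENSMUSG00000025403), the mitochondrial enzyme that hands the serine carbon to folate, lies at chr10:127517123-127522444 with 12 exons. It stood at 208.6, 191.5 and 181.0 CPM in control and at 199.9, 211.7 and 209.3 CPM after 30 min. Shmt2 had its highest mean after 30 min, at 207 CPM, and its lowest in low trypsin, at 170 CPM, yet all neighbouring groups overlapped. The difference after 30 min was 0.10 ± 0.0878 (SE; 95% interval -0.07 to 0.28). In low trypsin, at 166, 148 and 196 CPM, it was -0.18 ± 0.0880. Both 30 s and the cold-active protease gave differences near 0, at 0.0052 ± 0.0865 and -0.05 ± 0.0866, and 3 min gave -0.06 ± 0.0892.

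Mthfd2 (ENSMUSG00000005667), the mitochondrial dehydrogenase that oxidises the folate-bound unit, lies at chr6:83305691-83325908 with 8 exons. It was at 102.7, 102.6 and 99.0 CPM in control cells and at 79.1, 78.4 and 78.2 CPM after 30 s. The groups were tight and well apart, with a difference of -0.37 ± 0.105 (SE; 95% interval -0.58 to -0.16), a ratio of 0.775. The call was kept under 10 of 15 alternatives and ended without control replicate 1 or 2 (-0.36 each) and without each of the 30 s libraries (-0.37, -0.37 and -0.36).

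Low trypsin had 90.6, 84.5 and 76.2 CPM of Mthfd2, and the cold-active protease 84.0, 89.0 and 89.5 CPM. After 30 min it was at 94.3, 98.5 and 85.1 CPM. All 9 of these libraries were below the control libraries, with differences of -0.28 ± 0.104, -0.21 ± 0.103 and -0.13 ± 0.105 (SE) that were not called. The 3 min libraries, at 101, 76.5 and 93.8 CPM, overlapped control, with a difference of -0.17 ± 0.106. The order of the means was control, 30 min, 3 min, cold-active protease, low trypsin and 30 s, with overlap between all treated neighbours.

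Aldh1l2 (ENSMUSG00000020256), the mitochondrial dehydrogenase that releases the unit as carbon dioxide, lies at chr10:83487450-83534140 with 23 exons and had only 10 to 30 counts per library. Control libraries stood at 8.34, 11.7 and 9.43 CPM. Low trypsin had the highest mean, 12.2 CPM (13, 9.75 and 14), and 30 min the lowest, 9.06 CPM (6.28, 12 and 8.83). All groups overlapped. The difference in low trypsin was 0.31 ± 0.297 (SE; 95% interval -0.29 to 0.90) and after 30 min -0.11 ± 0.324 (95% interval -0.76 to 0.54). After 30 s the interval, -0.72 to 0.53, includes the difference seen for Mthfd2, so one of that size is not excluded at this depth.

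Psat1, Psph, Shmt2 and Aldh1l2 each overlap a gene on the opposite strand (the pseudogene Gm3329, Cct6a, Ndufa4l2 and D10Wsu102e). Whether counting used strand is not given in the sources used here. Reads from sequence that both genes of a pair hold cannot be told apart without it. Psat1 shared no run of 45 bases with Gm3329, and Shmt2 shared none with Ndufa4l2. Psph and Aldh1l2 did share runs with their partners. Cct6a had 608 to 1032 counts per library, where Psph had 32 to 90. Of the runs in the last 500 bases of Psph, 7.34% were found in Cct6a on the opposite strand. D10Wsu102e had 112 to 206 counts per library, and 17.7% of these runs of Aldh1l2 were found in it on the opposite strand. Mthfd2 overlaps a predicted gene on its own strand, Gm43890, but shared no run of 45 bases with it.

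**Figure D2:**
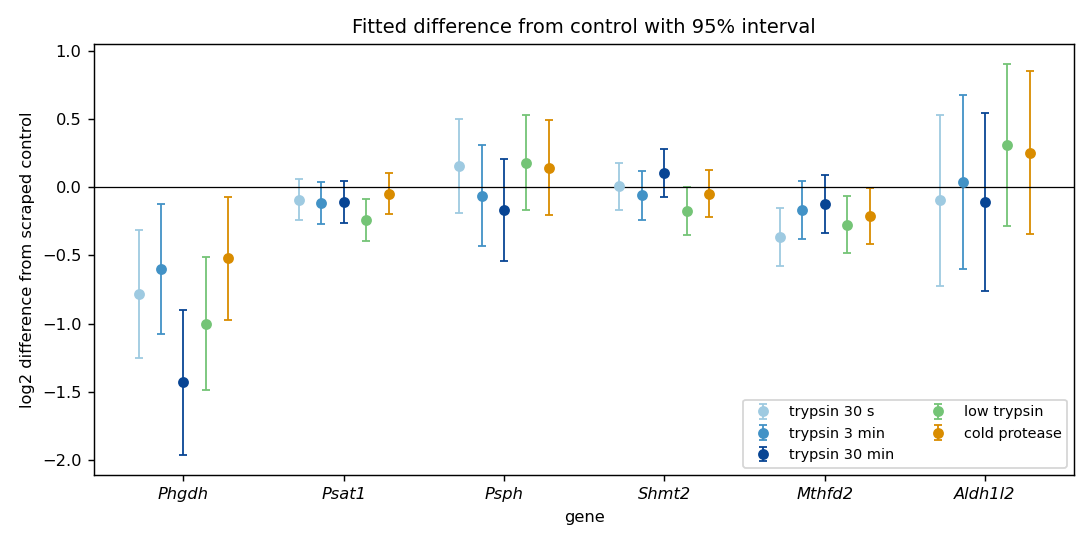
Fitted log2 difference from scraped control for each member and treatment; points are the edgeR estimates and whiskers the 95% intervals, from 3 libraries against 3. The Phgdh intervals lie below 0 in all 5 treatments, lowest after 30 min at -1.96 to -0.90, while those of Psph, Shmt2 and Aldh1l2 span 0 in all 5.

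Between treatments 0 members were called by edgeR in any of 4 comparisons. DESeq2 also called 0. It gave no adjusted p for Phgdh and Aldh1l2 for 30 min and for the cold-active protease, each against 3 min. Phgdh was lower after 30 min than after 3 min by a difference of -0.83 ± 0.292 (SE; 95% interval -1.42 to -0.24), the only one under 0.05 unadjusted, and the libraries did not overlap. It was called once 30 min replicate 2 was left out. Of all tested genes 4.03% were called in that comparison. For 3 min against 30 s the share of genes called was 1.94% and members differed by -0.22 to 0.20. For low trypsin against 3 min it was 4.36%, with Phgdh at -0.40 ± 0.266, and for the cold-active protease against 3 min 3.7%, with Phgdh at 0.08 ± 0.249. The intervals of Phgdh in the last 2 comparisons, -0.93 to 0.14 and -0.42 to 0.58, span 0 and are wide.

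The members were at most weakly correlated with each other. Over the 18 libraries the 15 pairwise Pearson correlations of log2 CPM ran from -0.319 for Psph and Mthfd2 to 0.478 for Phgdh and Psat1. Phgdh and Mthfd2, both called lower after 30 s, had a correlation of 0.312. These values are descriptions, since libraries of a group share their treatment and the low counts of Phgdh and Aldh1l2 weaken any correlation.

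Among 8531 genes whose mean reached 10 CPM, those most like Phgdh in pattern over the 18 libraries were Atp5pb, a subunit of ATP synthase (r = 0.884), Ppp1ca, a catalytic subunit of protein phosphatase 1 (r = 0.881), and Eno1, the glycolytic enolase (r = 0.865). They were picked for this likeness in the same libraries, so their values are a description with no test. Ppp1ca stood at 121, 124 and 122 CPM in control and at 42.7, 51.9 and 53.6 CPM after 30 min, a difference of -1.30 ± 0.118 (SE). Eno1 stood at 364, 321 and 318 CPM in control and at 148, 136 and 135 CPM after 30 min, a difference of -1.26 ± 0.0790. Atp5pb moved little, from 833 to 749 CPM, with a difference of -0.15 ± 0.0505. The shared share of the last 500 bases was 77.6% for Eno1, 26.1% for Atp5pb and 0% for Ppp1ca.

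The other members' closest genes were less alike. For Psat1 they were Tmem14c (r = 0.832), Ranbp1 (r = 0.809) and Rrs1 (r = 0.796), and for Psph Pofut2 (r = 0.816), 3830406C13Rik (r = 0.761) and Rapsn (r = 0.752). For Shmt2 they were Tubgcp2 (r = 0.758), Metap2 (r = 0.746) and Rit1 (r = 0.739), and for Mthfd2 Preb (r = 0.761), Sec31a (r = 0.744) and Uap1 (r = 0.725). For Aldh1l2 they were Nup153 (r = 0.725), Rgl1 (r = 0.718) and Med17 (r = 0.707). No member was among the 3 closest genes of another.

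**Figure D3:**
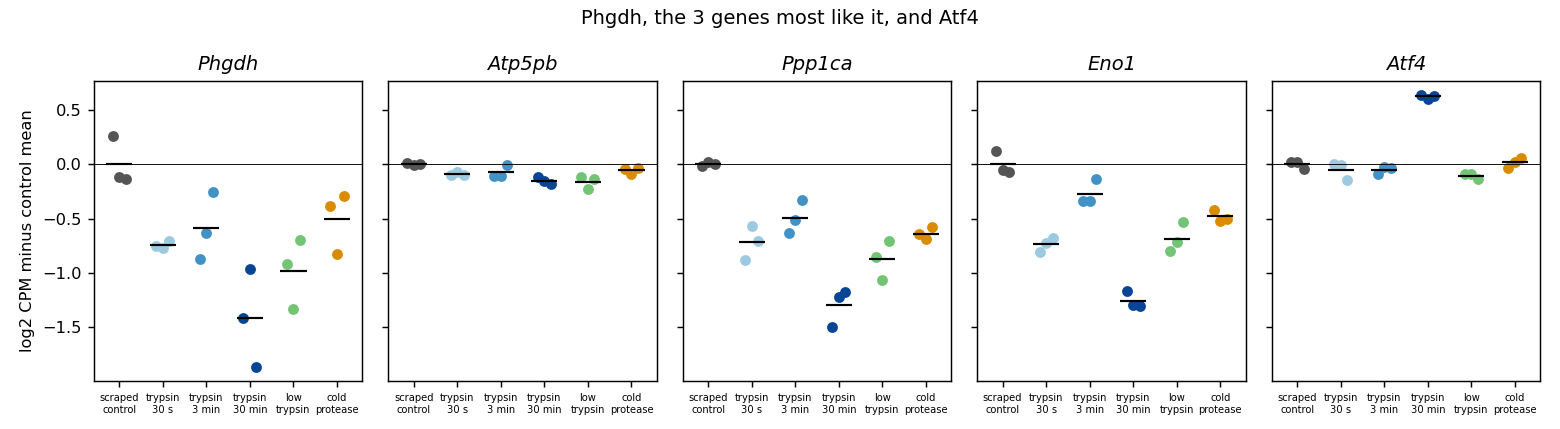
log2 CPM minus the control mean for Phgdh, its 3 most similar genes and Atf4 in all 18 libraries; points are libraries and bars group means. Phgdh, Ppp1ca and Eno1 are lowest after 30 min, Atp5pb moves far less, and Atf4 is above control after 30 min.

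The 9 gene lists from here on, with Atf4 in one of them, were chosen with earlier results of these data known. Their counts, medians and adjusted p are therefore a description and no independent support. Atf4, the regulator the members share as known targets, rose after 30 min. It stood at 544, 545 and 519 CPM in control and at 835, 811 and 830 CPM after 30 min, a rise of 0.62 ± 0.0538 (SE; edgeR adjusted p = 7.35e-13) kept under 15 of 15 alternatives. In the other 4 treatments its mean lay between 498 and 542 CPM, and no difference was called. At 30 min Phgdh was called lower, and every other member had an interval that spans 0. Among these was Shmt2, at its highest mean, with an interval of -0.07 to 0.28.

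Of 18 tested genes in a list of other Atf4 targets for amino acid supply and redox balance, 4 rose after 30 min and 0 fell, with a median difference of 0.17 against 0.0049 for all tested genes. Chac1, which degrades glutathione, rose from 5.00 to 18.5 CPM (1.92 ± 0.325, SE; edgeR adjusted p = 3.27e-05). Ddit4, an mTOR inhibitor, rose from 61.9 to 113 CPM (0.87 ± 0.122; edgeR adjusted p = 5.36e-07), and Gdf15, a stress hormone, from 33.9 to 57.6 CPM (0.78 ± 0.155; edgeR adjusted p = 0.000548). Slc38a2, a neutral amino acid transporter, rose from 418 to 556 CPM (0.41 ± 0.0605; edgeR adjusted p = 1.74e-06). Asns, asparagine synthetase and a classical Atf4 target, had 101 CPM in control and 108 CPM after 30 min (0.11 ± 0.0957), and Pck2 60.5 and 66.2 CPM (0.14 ± 0.134), neither called. Chac1, Ddit4, Gdf15 and Slc38a2 were also higher after 30 min than after 3 min, with edgeR adjusted p of 0.00398, 4.31e-07, 0.0338 and 0.000445. For these calls between treatments the alternatives were not examined. In the other 4 treatments 0 of the 18 were called by edgeR or DESeq2, with 0 to 2 under 0.05 unadjusted.

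Among 22 regulators of the integrated stress response, 6 rose after 30 min and 0 fell, with a median of 0.12. Beside Atf4, Ddit3, the transcription factor CHOP, rose from 22.5 to 44.1 CPM (0.96 ± 0.202, SE; edgeR adjusted p = 0.00108). Nupr1, a small stress-responsive transcriptional regulator, rose from 43.2 to 73.2 CPM (0.75 ± 0.134; edgeR adjusted p = 9.33e-05), and had fallen after 30 s to 25.3 CPM (-0.78 ± 0.156; edgeR adjusted p = 0.000285). Atf3, Trib3 and Ppp1r15a also passed, at edgeR adjusted p of 0.0335, 0.0467 and 0.0430. Their calls were kept under only 6 of 14, 7 of 14 and 6 of 15 alternatives and were lost with DESeq2, with adjusted p up to 0.121, 0.210 and 0.320. Leaving out any 1 of the 6 libraries ended the call of Atf3, and 5 of 6 that of Trib3 and of Ppp1r15a.

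**Figure D4:**
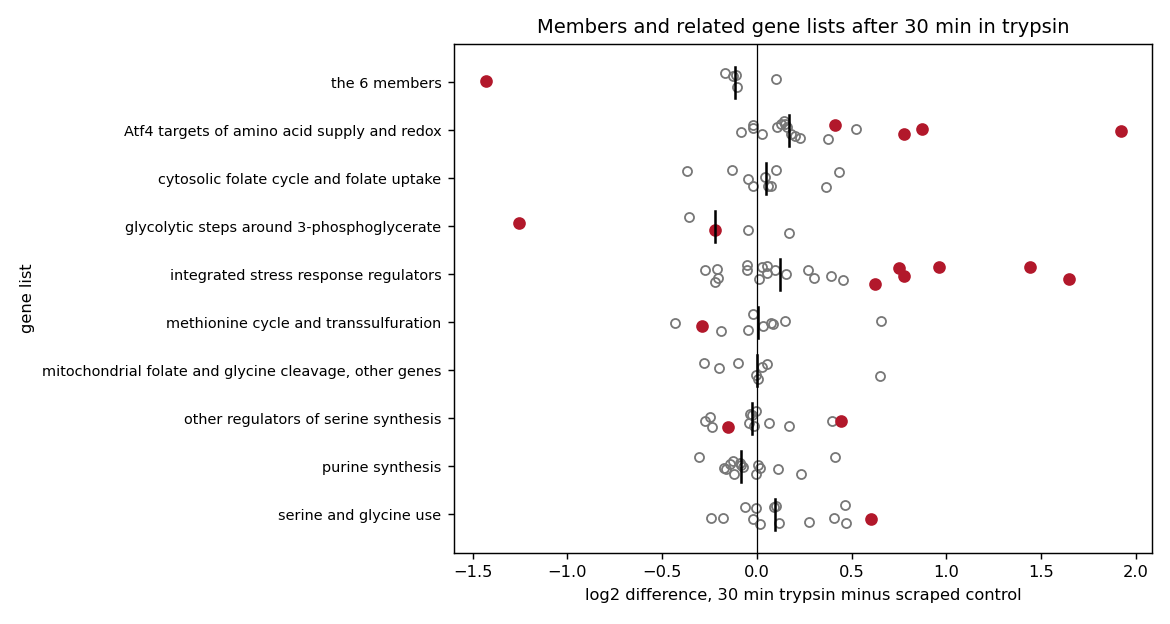
Fitted log2 difference, 30 min trypsin minus scraped control, for the tested genes of each list; filled red points are called at an edgeR adjusted p under 0.05, open points are not, and the vertical tick is the list's median. Of the 6 members only Phgdh is filled, at -1.43, while the called genes of the Atf4 target and stress response lists are all above 0.

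The rest of the mitochondrial folate route showed no called gene against control. Of 8 tested genes 0 were called by edgeR or DESeq2 in any of the 5 treatments, 0 or 1 were under 0.05 unadjusted, and medians lay between -0.08 and 0.02. Mthfd1l, which releases formate, had 83.2 CPM in control and 72.2 CPM after 30 min (-0.20 ± 0.117, SE). Mthfd2l, a relative of Mthfd2, had 11 and 11.5 CPM (0.06 ± 0.289). Sfxn1, a mitochondrial serine transporter, was higher with the cold-active protease than after 3 min, at 240 against 204 CPM (0.24 ± 0.0695; edgeR adjusted p = 0.0399). The alternatives were not examined for this call. Gldc and Amt of the glycine cleavage system were not tested, with 0 to 4 and 1 to 14 counts per library.

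In the cytosolic folate cycle 0 of 10 tested genes were called by edgeR or DESeq2 in the 5 treatments, with 0 or 1 under 0.05 unadjusted. Shmt1, the cytosolic relative of Shmt2, had 23.3 CPM in control and 17.9 CPM after 30 min (-0.37 ± 0.215, SE), and Mthfd1 127 and 116 CPM (-0.13 ± 0.0942). Of 15 purine synthesis genes 0 were called after 30 min, with 4 under 0.05 unadjusted. Single purine genes were called elsewhere: Adsl rose after 30 s (0.32 ± 0.0925; edgeR adjusted p = 0.0177), Aprt fell after 3 min (-0.18 ± 0.0534; 0.0394) and Adss fell in low trypsin (-0.28 ± 0.0811; 0.0296). Each of these 3 calls ended with at least 4 of the 6 libraries left out in turn, with adjusted p up to 0.127, 0.195 and 0.207.

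In the methionine cycle, which takes up folate-bound methyl groups, Mat2a, the enzyme that makes S-adenosylmethionine, was the only one of 10 tested genes called against control. It stood at 268, 275 and 283 CPM in control and at 224, 225 and 226 CPM after 30 min, a fall of -0.29 ± 0.0695 (SE; edgeR adjusted p = 0.00497) kept under 15 of 15 alternatives. In low trypsin it fell by 0.22 (edgeR adjusted p = 0.0434), a call that ended with each of the 6 libraries left out, at up to 0.205. Of 14 tested genes that use serine or glycine, Serinc2, a membrane protein linked to serine incorporation into lipids, was the only one called against control, with a rise after 30 min from 26.1 to 39.7 CPM (0.60 ± 0.178; edgeR adjusted p = 0.0354). That call ended without 4 of the 6 libraries, at up to 0.174.

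Of 5 tested glycolytic genes around 3-phosphoglycerate, the branch point of serine synthesis, 1 to 3 fell and 0 rose in each treatment, with list medians from -0.22 to -0.10. Eno1 was in each of these counts, and of all tested genes 0.467% to 3.7% were called lower. Eno1 fell in all 5 treatments, by 0.74 after 30 s, 0.27 after 3 min, 1.26 after 30 min, 0.68 in low trypsin and 0.48 with the cold-active protease on the log2 scale. The edgeR adjusted p were 1.95e-11, 0.0148, 7.16e-18, 6.72e-10 and 1.97e-05. Of the runs in the last 500 bases of Eno1, 77.6% are shared with other genes, and their part in its fall was not tested. The 3 min call ended without control replicate 1 (-0.21) and without 3 min replicates 1 or 2 (-0.24 each). Eno3, the muscle enolase, fell by 0.22 after 30 min (edgeR adjusted p = 0.00266) and by 0.20 in low trypsin (edgeR adjusted p = 0.00666), the latter lost without control replicate 3 or low trypsin replicate 2 (-0.16 and -0.17). Pgk1, which makes 3-phosphoglycerate, fell in low trypsin from 34.4 to 22.8 CPM (edgeR adjusted p = 0.0351), a call lost without 5 of the 6 libraries, at up to 0.177. Gapdh, another gene known for many pseudogenes, had only 1 to 9 counts per library and was not tested.

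Among 13 tested regulators of serine synthesis, Pkm, the pyruvate kinase whose product lies below this branch point, fell by 0.26 after 30 s (edgeR adjusted p = 3.86e-05), by 0.15 after 30 min (0.0397) and by 0.20 in low trypsin (0.00203). The 30 min call ended without 5 of the 6 libraries, at an adjusted p of up to 0.294, and the low trypsin call ended without control replicate 1 (-0.15). Prmt1, an arginine methyltransferase, rose after 30 min from 106 to 146 CPM (0.44 ± 0.0908, SE; edgeR adjusted p = 0.000746), kept under 15 of 15 alternatives. Myc, an activator of these enzymes, differed from control after 30 min by -0.02 ± 0.163. It differed by 0.23 ± 0.153 after 30 s and by 0.27 ± 0.158 after 3 min. In low trypsin Myc differed by 0.34 ± 0.151 and with the cold-active protease by -0.05 ± 0.158, and no difference was called. In bulk RNA, fewer cells expressing a gene and less RNA per cell cannot be told apart for any of these values.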

How the data were processed

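RNA from C2C12 cells was sequenced by BRB-seq in 18 libraries (6 groups of 3). Per the submitters' processing notes, the build was GRCm38 and the tools were HISAT2 2.1.0, featureCounts 2.0.1, DESeq2 1.28.1, Trim Galore 0.6.6, UMI-tools 1.0.1 and cutadapt 2.6. Not given in the sources used here are the settings, the strand and how reads with several matches were treated. Raw gene counts were deposited by the authors and used unchanged; their 2 other tables, of normalized and "TPM" values, were not used. Totals were 1490869 to 2480690 counts per library, so a floor of 3 counts is 1.21 to 2.01 CPM, a limit set by counting error alone. Library pairs within groups differed by more than sampling noise, with chi-square per degree of freedom of 1.41 to 2.60.

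Genes were filtered with filterByExpr by group and fitted in edgeR 4.0.16 (R 4.3.3) with TMM factors (0.974 to 1.03), all 18 libraries in 1 fit, no covariate, a quasi-likelihood F test and Benjamini-Hochberg adjustment over 10075 genes; it was tested on simulated data. The median log2 difference of all genes was at most 0.0092 in size. The 9 comparisons were each treatment with control, and 4 between treatments. Alternatives were DESeq2 1.42.0, 3 other scalings, 2 other filters, the lot number as a block, 2-group fits, leaving out each library, and, added after seeing the data, adding Phgdh copies to Phgdh. A gene without an adjusted p in DESeq2 counted as not called. Annotation was GENCODE M21, and promoter windows came from RefSeq. Members and the 9 other lists were chosen with earlier results of these data known. Named genes were the members, Atf4, up to 4 called genes with the smallest p per list and control comparison, and the 3 genes most correlated with each member over 18 libraries (log2 CPM, prior count 2); other list genes named (Asns, Pck2, Mthfd1l, Mthfd2l, Shmt1, Mthfd1, Myc, Sfxn1, Gldc, Amt, Gapdh, Trib3 and Ppp1r15a) were added after their values were seen.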

Additional observations from a re-analysis of the deposited data

How the results depend on the processing

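None of the 34 called differences from control of members and named genes changed sign under the alternatives run. Of the 54 differences of members over the 9 comparisons, 18 changed sign under at least 1 alternative, all of them uncalled and near 0, such as Aldh1l2 after 3 min (0.04, from -0.22 to 0.21) and Psph after 3 min (-0.06, from -0.31 to 0.11). The number of members called after 30 s (2) was 1 with DESeq2 and 0 to 2 when a library was left out; it was 0 without control replicate 1 or any 30 s library. In low trypsin (2) it was 1 with DESeq2, with upper quartile scaling, with no filter, with the replicate block and with only the 2 groups compared, and 0 to 1 with a library left out. For 30 min against 3 min (0) it was 0 to 1, with 1 without 30 min replicate 2. The number of genes called after 30 min (472) ranged from 304 to 405 with a library left out, lowest without control replicate 2, and 313 without 30 min replicate 2. With the cold-active protease (67) it ranged from 35 to 53, lowest without cold-active protease replicate 1. The cause of these shifts was not tested, beyond the smaller number of libraries. Libraries with the same lot number were at most weakly correlated in their deviations from the group mean (-0.06 to 0.071 over 27 pairs). For low trypsin against 3 min, the own lot number gave the highest correlation for 3 of 3 libraries. In the other comparisons it did so for 0 to 2. These values do not settle whether lots were paired. With the lot as a block Phgdh after 30 min was -1.42, the Psat1 call in low trypsin was lost, and among the named genes the calls of Trib3 and Ppp1r15a after 30 min were lost. Leaving out a library leaves 2 in its group, with the spread pooled over all groups. Depth limits Phgdh and Aldh1l2 most, at 9 to 45 and 10 to 30 counts per library.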
